A study of Mus musculus with 9 samples.

Results

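The 10 genes described here encode the translation factors of mouse mitochondria, namely Tufm, Tsfm, Gfm1, Guf1, Mtif2, Mtif3, Mtrf1, Mtrf1l, Mrrf and Gfm2. They were chosen by gene symbol, as the proteins that start, extend, end and recycle protein synthesis on the mitochondrial ribosome, the process that tetracyclines can block. All 10 were found among the 32285 identifiers of the table, and all 10 entered the test, which took 12100 genes whose mean over the libraries reached 10 normalized counts. RNA sequencing measured whole liver in 9 libraries, 3 each for the groups Control, Dox and Tc. All mice were 4 weeks old, and the study describes the mice given Dox or Tc as male and of that age when treated. They carried the Tet-OFF system, in which the transactivator tTA stands behind a loxP-flanked stop at Rosa26, CreERT2 is driven by the ubiquitous CAG promoter, and a tetO promoter at Rosa26 drives Venus and mCherry. Every mouse, controls included, had been given tamoxifen, which switches CreERT2 on. The Dox group drank doxycycline hyclate and the Tc group tetracycline hydrochloride, each at 2 mg/mL in water with 10 mg/mL sucrose for 7 days, and the Control group had neither drug. Since either drug also shuts off the reporter that stays on in Control, the effect of a drug and that of reporter shutdown cannot be told apart, and whether controls drank sucrose was not given in the sources used here.

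Mitochondria make a small set of respiratory chain proteins on their own ribosomes, which resemble those of bacteria, and all factors that work on these ribosomes are encoded in the nucleus. Initiation factors place the start transfer RNA and the messenger on the small subunit, elongation factors deliver the next transfer RNA and move the ribosome along, release factors free the finished chain at a stop codon, and recycling factors split the ribosome for another round. Tetracyclines bind the small subunit of bacterial ribosomes where the transfer RNA enters, and they can also slow mitochondrial protein synthesis, which makes the messenger RNAs of these factors of interest in liver, a tissue rich in mitochondria.

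The libraries held 7426136 to 12183041 reads in genes. In each group library 3 lay close to a weighted sum of libraries 1 and 2, with weights of 58.6% and 41.5% in Control, 61.3% and 34.5% in Dox and 61.3% and 36.8% in Tc. Among genes more than 2-fold apart between libraries 1 and 2, library 3 lay between them for 201 of 207 in Control, 3010 of 3025 in Dox and 483 of 488 in Tc. For the 10 factors, with no limit on that distance, it lay between for 4 in Control, 9 in Dox and 5 in Tc. Tests are therefore given with all 9 libraries and, where a result turns on them, also without the 3 libraries numbered 3, and p-values with all 9 are too small if those libraries are not separate livers. The liver label held, since all 9 hepatocyte markers were detected, but their summed level was 1261000 to 1774000 normalized counts in Control, 675200 to 1039000 in Dox and 1042000 to 1473000 in Tc. By gene the shift was uneven, since 1 of 9 was below all controls and 1 of 9 above them in every Dox library, and in Tc 0 of 9 were below and 1 of 9 above. All 6 sinusoidal endothelial markers were detected, with a sum of 4519 to 4700 in Control, 2214 to 2708 in Dox and 3441 to 4042 in Tc. Of these, 5 of 6 were below all controls in every Dox library and 4 of 6 in every Tc library. Of all 12100 tested genes, 17.1% were below all controls in every Dox library and 14.9% in every Tc library. The 6 Kupffer cell markers summed to 5933 to 11790 in Control, 1591 to 5594 in Dox (5 of 6 below all controls) and 2808 to 5770 in Tc (3 of 6 below). The 6 stellate cell markers summed to 3470 to 3667 in Control, 2922 to 3382 in Dox (1 of 6 below all controls) and 3499 to 4134 in Tc (1 below and 1 above). The 6 lymphocyte markers, of which 1 reached a mean of 10, summed to 35.99 to 66.35 in Control, 23.01 to 26.32 in Dox and 26.11 to 37.77 in Tc, with 2 of 6 below all controls in each drug group. The 5 cholangiocyte markers summed to 199.9 to 243.5 in Control, 148.4 to 371.7 in Dox (2 of 5 above all controls) and 254.9 to 335.4 in Tc (1 of 5 above). The erythroid and neutrophil sums overlapped between groups (5 of 6 erythroid genes were nevertheless below all controls in every Dox and every Tc library). The acinar list summed to 96.62 to 119.6 in Control and 23.01 to 66.34 in Dox, and 3 defining markers of pancreatic acinar cells, Cpa1, Prss2 and Pnlip, were listed at 0 in every library. Fewer cells of a type and less RNA per cell cannot be told apart in these whole-tissue libraries, and the part of these shifts in the values that follow was not tested.

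No factor messenger passed the test in any comparison of all 9 libraries. With the fold change limit of 2 and an adjusted p under 0.05 (limma, Benjamini-Hochberg over 12100 genes), 0 of 10 factors were called in Dox against Control, where 5% of all tested genes were called, 0 of 10 in Tc against Control (0.165% of all) and 0 of 10 in Dox against Tc (0.215% of all). With no fold limit the counts were again 0 of 10 in each comparison, beside 8.41%, 0.182% and 0.231% of all tested genes. At an unadjusted p under 0.05, 1 factor passed in each comparison, Guf1 in Dox against Control (29.1% of all genes passed), Mtrf1 in Tc against Control (11.7%) and Mtrf1 in Dox against Tc (21.7%). Without libraries 3, 0 factors passed even that limit, beside 8.6%, 1.98% and 3.75% of all genes. These fits take 1 estimate of spread per gene over all 3 groups, the Dox group included. In a limma fit of Tc and Control alone, Tufm, Mtrf1 and Gfm1 had unadjusted p = 0.00448, 0.0174 and 0.0176. Their adjusted p in that limma fit was 0.0605, 0.112 and 0.112, and the share of all genes with such unadjusted p there is not given here. DESeq2 on whole reads also called 0 of 10 in each comparison at an adjusted p under 0.05, where it called 18%, 2.86% and 8.78% of all genes, and edgeR called 0 of 10, beside 9.11%, 0.198% and 0% of all genes. A call appeared only when Dox library 1 was left out, after which Tufm and Gfm2 passed in Dox against Tc at adjusted p = 0.0477 and 0.0455 in limma, with log2 fold changes of -0.66 and -0.90. The share of all genes called in that fit is not given here, so these 2 calls cannot be set against it.

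The median log2 fold change over the 10 factors was -0.07 in Dox against Control, 0.08 in Tc against Control and -0.07 in Dox against Tc, and over all tested genes it was 0.00, 0.00 and -0.02. Scaling every library to the same total moved the median of all genes to 0.17 in Dox against Control and 0.16 in Dox against Tc, and that of the factors to 0.10 and 0.11, so the factors stayed below the median gene in both. Single libraries also moved it, and in Dox against Control the median was -0.17 without Dox library 1 and 0.03 without Dox library 2. In Dox against Tc it was -0.19 and 0.06 without the same libraries, and in Tc against Control it ran from 0.03 without Tc library 1 to 0.13 without Tc library 2. With all 9 libraries, the 95% interval of the log2 fold change lay within 2-fold in either direction for 8 of 10 factors in Dox against Control, 10 of 10 in Tc against Control and 9 of 10 in Dox against Tc. The exceptions were Mtrf1l and Gfm2 with Dox against Control and Gfm2 against Tc. Without libraries 3 the counts were 8, 5 and 7 of 10, so a 2-fold difference was not excluded by those intervals for the others.

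**Figure D1:**
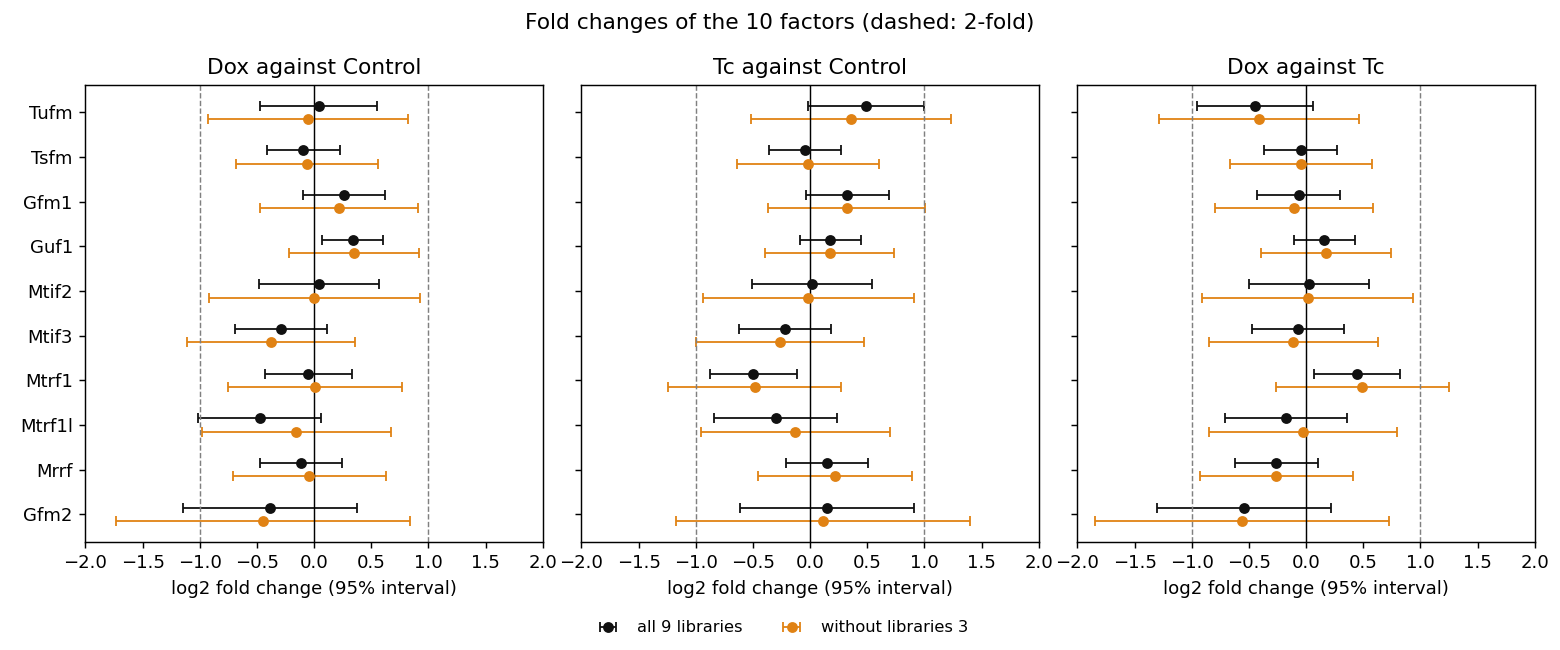
Log2 fold changes of the 10 factors (rows) in the 3 comparisons (panels), with 95% intervals from limma, in black with all 9 libraries and in orange without the libraries numbered 3; dashed lines mark a 2-fold difference. The black interval leaves out 0 for Guf1 in Dox against Control and for Mtrf1 in Tc against Control and Dox against Tc, and every orange interval includes 0.

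Promoter sequence from RefSeq (GRCm38.p6) was matched by symbol for 8 of the 10 factors, all but Guf1 and Mtif3. The 250 bases before the annotated start are shown for Tufm, Gfm1 and Mtrf1, since these 3 had every Tc library on one side of every control. Capitals mark matches, on either strand, to 4 motifs of factors known for their part in mitochondrial gene control or the stress response to failing translation, GCGCATGC for NRF1, CCGGAAG for GABPA and other ETS factors, AAGATGG for YY1 and TGATGNAA for ATF4, which do not contain one another.
Tufm, chr7:126487105-126487354, plus strand: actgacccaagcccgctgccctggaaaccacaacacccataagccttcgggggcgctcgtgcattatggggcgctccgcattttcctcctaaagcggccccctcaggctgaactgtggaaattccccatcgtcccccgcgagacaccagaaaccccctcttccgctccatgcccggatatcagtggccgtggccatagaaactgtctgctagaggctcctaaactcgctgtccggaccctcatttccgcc
Gfm1, chr3:67429865-67430114, plus strand: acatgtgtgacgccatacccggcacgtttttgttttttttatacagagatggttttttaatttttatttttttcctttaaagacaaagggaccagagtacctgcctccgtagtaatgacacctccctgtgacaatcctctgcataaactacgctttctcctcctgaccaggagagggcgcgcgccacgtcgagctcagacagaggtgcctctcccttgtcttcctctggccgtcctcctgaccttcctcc
Mtrf1, chr14:79397522-79397771, plus strand: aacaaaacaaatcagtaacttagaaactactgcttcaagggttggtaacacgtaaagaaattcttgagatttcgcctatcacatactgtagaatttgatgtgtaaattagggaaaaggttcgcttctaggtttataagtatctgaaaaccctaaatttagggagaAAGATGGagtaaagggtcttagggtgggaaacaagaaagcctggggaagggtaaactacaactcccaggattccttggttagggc
Mtrf1 held the YY1 letters 85 bases before its start, and Tufm and Gfm1 held none of the 4. Of the 8 factors with a sequence, 1 held the YY1 motif (Mtrf1) and 1 the ETS motif (Mtif2, 11 bases before the start), and 0 held the NRF1 or ATF4 motif. Among all 32851 promoters of this length, 4.49% held the YY1 motif, 6.91% the ETS motif, 2.26% the NRF1 motif and 3.45% the ATF4 motif, and among the 12216 promoters of tested genes the shares were 4.31%, 13%, 4.14% and 2%. The share of G and C in the window was 60.4% for Tufm, 49.2% for Gfm1 and 39.2% for Mtrf1, with a median of 52.4% over all promoters.

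Levels were compared between genes as normalized counts per kb of annotated exon. In Control, Tufm was the most abundant at 206.9 (189.7 to 223.7 over 3 libraries) and Gfm1 second at 147.3 (143.0 to 149.7), so that the elongation factors that deliver transfer RNA and move the ribosome stood above all others. Mtif2 followed at 67.96 (62.67 to 72.50), and Tsfm at 45.30, Mtif3 at 43.37, Gfm2 at 41.10 and Mrrf at 39.11 formed a run of neighbours whose libraries overlapped. Mtrf1 at 23.11, Mtrf1l at 13.50 and Guf1 at 12.32 closed the order, and the last pair overlapped. In Tc the order of the first 3 was the same, with Tufm at 291.7, Gfm1 at 185.8 and Mtif2 at 69.09, and no library overlapped between these neighbours. In Dox the libraries of Tufm (151.0 to 284.9) and Gfm1 (145.0 to 207.5) overlapped. This order below Gfm1 holds for summed exon lengths only. Annotated exons sum to 10685 bp for Gfm2, 10372 for Guf1, 2904 for Tsfm and 4971 for Mrrf, whereas their principal transcripts have 3157, 3433, 1206 and 2623 bp. By the length of the principal transcript, the Control levels were 261.8 for Tufm, 159.6 for Gfm1, 139.1 for Gfm2, 109.1 for Tsfm, 95.9 for Mtif2, 74.1 for Mrrf, 45.1 for Mtif3, 37.2 for Guf1, 31.0 for Mtrf1 and 17.0 for Mtrf1l, so that Gfm2 and Tsfm then stood above Mtif2.

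**Figure D2:**
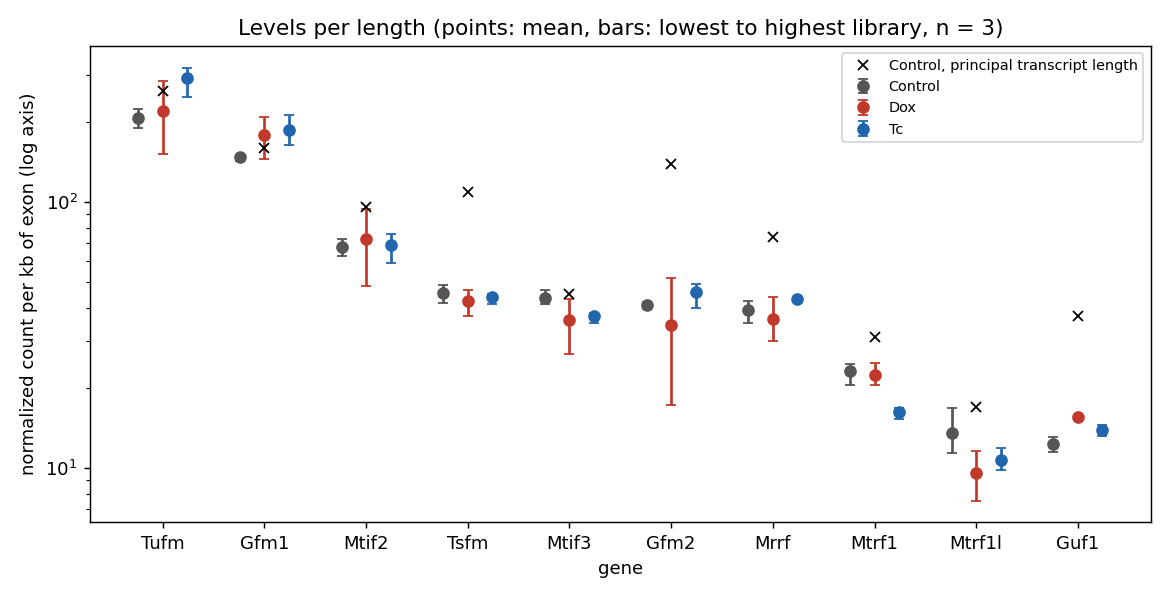
Level of each factor in normalized counts per kb of exon (vertical log axis) in Control, Dox and Tc; points are means and bars run from the lowest to the highest of 3 libraries, and crosses give the Control mean per kb of the principal transcript. Tufm (206.9 in Control) and Gfm1 (147.3) lie highest and Mtrf1l (13.50) and Guf1 (12.32) lowest by summed exon length, and the crosses of Gfm2 and Guf1 lie farthest above their points.

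Of the elongation factors, Tufm (ENSMUSG00000073838, chr7:126487361-126490731) encodes the GTPase that carries aminoacyl-tRNA to the ribosome. Tufm had 475, 441 and 403 normalized counts in Control libraries 1, 2 and 3, 605, 321 and 472 in Dox, and 656, 524 and 679 in Tc. Every Tc library was above every control, while the Dox libraries spanned all controls. The log2 fold change, on log2(normalized count + 1), was 0.49 ± 0.22 (SE, n = 3 per group) in Tc against Control, with adjusted p = 0.448 in limma, 0.04 ± 0.22 in Dox against Control (adjusted p = 0.921) and -0.45 ± 0.22 in Dox against Tc (adjusted p = 0.27). Without libraries 3 the Tc value was 0.36 ± 0.35. In the fit of Tc and Control alone it was 0.49 ± 0.12 (interval 0.20 to 0.78, unadjusted p = 0.00448 in limma, adjusted p = 0.0605). Tufm was lower in Dox than in the same-numbered Tc library in 3 of 3 pairs, and with a replicate block in the fit the Dox against Tc value was -0.45 ± 0.19 (interval -0.893 to -0.004, unadjusted p = 0.0486 in limma, adjusted p = 0.241). In the fit of Dox and Tc alone with that block the adjusted p was 0.383, and leaving out Dox library 2 brought the value to -0.20. Whether same-numbered mice were paired was not given in the sources used here. The third pair is not independent of the others if libraries 3 are not separate livers, and the block p is then too small.

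Tsfm (ENSMUSG00000040521, chr10:127011572-127030840) encodes the exchange factor that reloads the Tufm protein with GTP. Tsfm had 132, 121 and 141 normalized counts in Control, 136, 108 and 127 in Dox, and 131, 119.6 and 131 in Tc. The 3 groups overlapped, and the log2 fold changes were -0.09 ± 0.14 in Dox and -0.05 ± 0.14 in Tc against Control (limma, adjusted p = 0.68 and 0.941), with intervals of -0.41 to 0.22 and -0.36 to 0.27.

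Gfm1 (ENSMUSG00000027774, chr3:67430096-67476529) encodes the GTPase that moves the ribosome by a codon. Gfm1 had 662, 659 and 632 normalized counts in Control, 917, 641 and 809 in Dox, and 937, 724 and 802 in Tc. All Tc libraries lay above all controls, and in Dox libraries 1 and 3 did but library 2 did not. The log2 fold change was 0.33 ± 0.16 in Tc against Control and 0.26 ± 0.16 in Dox against Control (limma, adjusted p = 0.484 and 0.305), and -0.07 ± 0.16 in Dox against Tc (adjusted p = 0.816).

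Guf1 (ENSMUSG00000029208, chr5:69556923-69575973) encodes a relative of bacterial LepA, a GTPase thought to act on stalled ribosomes. Guf1 had 135, 119 and 128 normalized counts in Control, 164, 159.9 and 160.1 in Dox, and 150.4, 137 and 147 in Tc. The groups did not overlap in any comparison, with Dox highest and Control lowest. The log2 fold change was 0.34 ± 0.12 in Dox against Control (unadjusted p = 0.0192 in limma, adjusted p = 0.105), 0.18 ± 0.12 in Tc against Control (adjusted p = 0.62) and 0.16 ± 0.12 in Dox against Tc (adjusted p = 0.42). Without libraries 3 the Dox value was 0.35 ± 0.23. The spread of Guf1 in Dox, a coefficient of variation of 1.52%, was below the counting error of its single libraries, 7.41% to 8.48%. Guf1 shares 1022 bp of exon with Gnpda2 on the other strand, whose mean was 17.24 normalized counts.

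**Figure D3:**
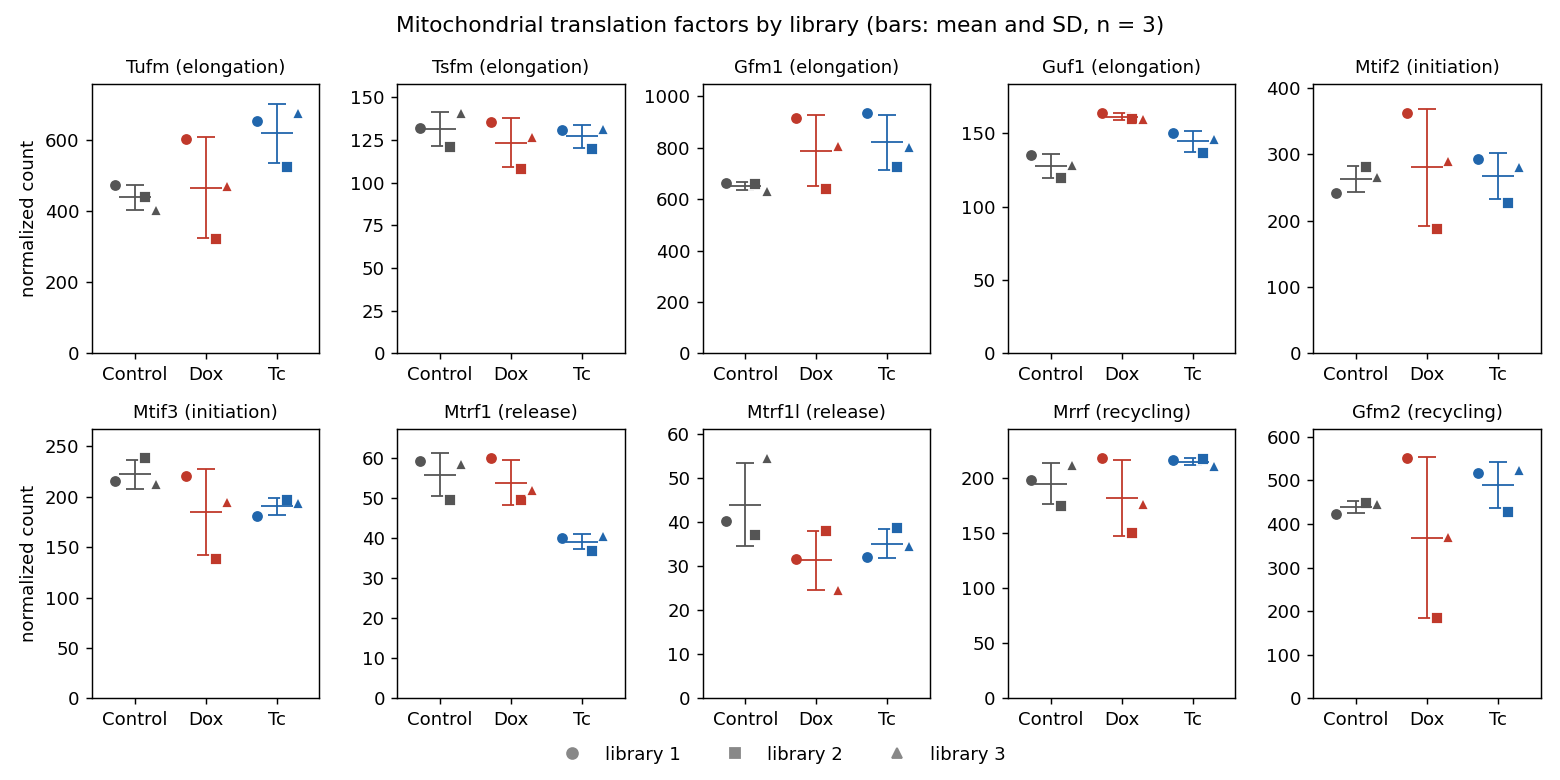
Normalized counts of the 10 factors (panels) in each library, by group; circles, squares and triangles are libraries 1, 2 and 3, and bars give the mean and SD of 3 libraries. Guf1 is the factor whose 3 groups do not overlap, Mtrf1 is lowest in Tc (36.9 to 40.4), and in the Dox group Gfm2 runs from 184 to 552.

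Of the initiation factors, Mtif2 (ENSMUSG00000020459, chr11:29526408-29545279) encodes the GTPase that brings the start transfer RNA. Mtif2 had 242, 280.4 and 266 normalized counts in Control, 363, 187 and 290.3 in Dox, and 293, 228 and 281 in Tc. Dox libraries lay on both sides of the controls and Tc overlapped them, with log2 fold changes of 0.04 ± 0.23 and 0.02 ± 0.23 (limma, adjusted p = 0.918 and 0.988).

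Mtif3 (ENSMUSG00000016510, chr5:146951573-146963800) encodes the factor that keeps the subunits apart and helps set the start codon. Mtif3 had 216, 239 and 212 normalized counts in Control, 221, 138 and 195 in Dox, and 181, 197 and 194 in Tc. All Tc libraries were below all controls, whereas Dox library 1 was not. The log2 fold changes were -0.22 ± 0.18 in Tc and -0.29 ± 0.18 in Dox against Control (limma, adjusted p = 0.701 and 0.306). Mtif3 shares 1505 of its 5127 bp of exon with Gtf3a on the other strand, which had a mean of 83.35 normalized counts and log2 fold changes of -0.14 in Tc and -0.29 in Dox. The library kit keeps strand, but whether counting used it was not given in the sources used here, and without it reads of such partners cannot be told apart.

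Of the release factors, Mtrf1 (ENSMUSG00000022022, chr14:79397772-79423587) is a relative of the bacterial class that reads stop codons. Mtrf1 had 59.3, 49.5 and 58.5 normalized counts in Control, 60.0, 49.5 and 51.9 in Dox, and 40.0, 36.9 and 40.4 in Tc. All Tc libraries lay below all Control and all Dox libraries, and Dox overlapped Control. The log2 fold change was -0.50 ± 0.17 in Tc against Control (interval -0.88 to -0.12, unadjusted p = 0.016 in limma, adjusted p = 0.326), 0.45 ± 0.17 in Dox against Tc (adjusted p = 0.185) and -0.05 ± 0.17 in Dox against Control (adjusted p = 0.86). Without libraries 3 the Tc value was -0.49 ± 0.31. These levels rest on 46 to 56 reads per Control library and 41 to 48 per Tc library, each with a counting error of 13.4% to 15.6%, and the unscaled reads of the groups overlap.

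Mtrf1l (ENSMUSG00000019774, chr10:5811887-5823910) encodes the main release factor for the standard stop codons. Mtrf1l had 40.2, 37.2 and 54.7 normalized counts in Control, 31.6, 38.0 and 24.6 in Dox, and 32.2, 38.7 and 34.5 in Tc. The groups overlapped, and Control library 3 stood highest, above both other controls. The log2 fold changes were -0.48 ± 0.24 in Dox and -0.30 ± 0.24 in Tc against Control (limma, adjusted p = 0.216 and 0.69), and without libraries 3 they were -0.16 ± 0.33 and -0.13 ± 0.33, so their size rested on the third libraries.

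Of the recycling factors, Mrrf (ENSMUSG00000026887, chr2:36136389-36190647) encodes the ribosome recycling factor. Mrrf had 198, 174 and 211 normalized counts in Control, 218, 149.5 and 176 in Dox, and 216, 217 and 210.6 in Tc. The groups overlapped, and the 3 Tc libraries lay close together, with a coefficient of variation of 1.55%. The log2 fold changes were -0.11 ± 0.16 in Dox and 0.14 ± 0.16 in Tc against Control (limma, adjusted p = 0.657 and 0.798). Mrrf shares 385 bp of exon with Rbm18 on the other strand, whose mean was 141.1 normalized counts.

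Gfm2 (ENSMUSG00000021666, chr13:97137937-97181195) encodes the GTPase that works with the Mrrf protein to split the ribosome. Gfm2 had 423, 448 and 446 normalized counts in Control, 552, 184 and 369.5 in Dox, and 517, 428 and 523 in Tc. The Control libraries were nearly level, and the Dox libraries lay both above and far below them. The log2 fold change was -0.39 ± 0.34 in Dox against Control (interval -1.15 to 0.37), 0.15 ± 0.34 in Tc against Control and -0.54 ± 0.34 in Dox against Tc (limma, adjusted p = 0.466, 0.913 and 0.348). The Dox against Control value was -0.75 without Dox library 1 and 0.04 without Dox library 2, so its size and direction rested on single libraries, and against Tc it was -0.90 and -0.11.

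The widest differences in this gene set were those between libraries of the Dox group. The 10 factors summed to 2584, 2568 and 2553 normalized counts in Control libraries 1 to 3, 3268, 1976 and 2675 in Dox, and 3153, 2649 and 3042 in Tc. Dox library 1 was thus highest of all 9 and Dox library 2 lowest of all 9. Within Dox, 9 of 10 factors were higher in library 1 than in library 2, by 3-fold for Gfm2, 1.94-fold for Mtif2 and 1.89-fold for Tufm, while Guf1 was level (1.03-fold) and Mtrf1l went the other way (0.832-fold). The median log2 difference between these libraries was 0.53 for the factors and -0.02 for all tested genes. That spread was not limited to these genes, since 35.2% of all tested genes were more than 2-fold apart between Dox libraries 1 and 2 (1 of 10 factors, Gfm2), against 4.84% in Control and 8.45% in Tc (0 factors in each). The coefficient of variation of Gfm2 was 49.9% in Dox, 3.10% in Control and 10.8% in Tc, and that of Mtif2 was 31.5%, 7.30% and 13.1%.

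**Figure D4:**
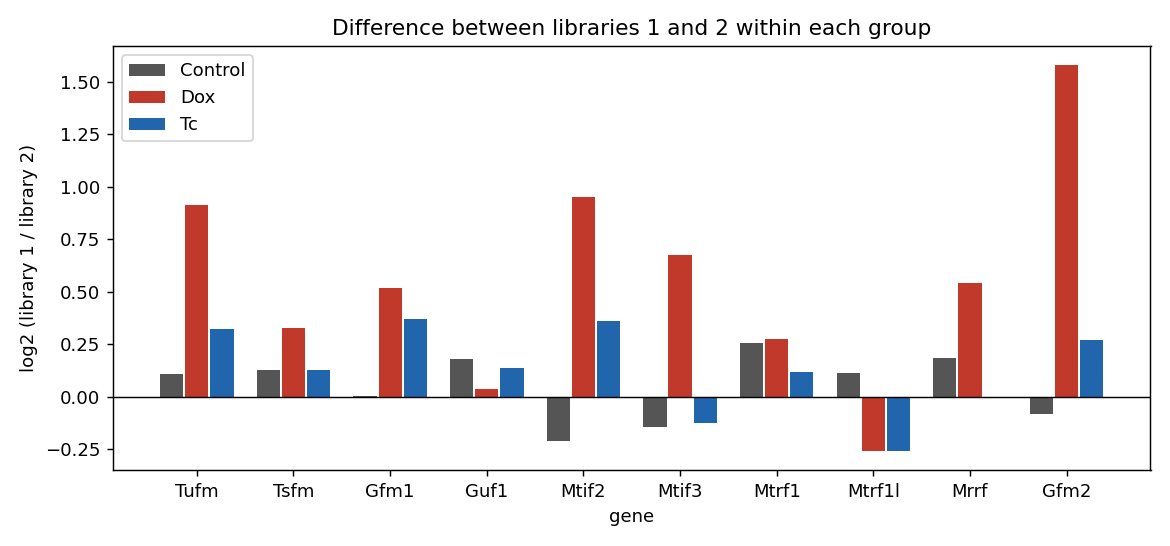
Log2 ratio of library 1 to library 2 (bars) for each factor in Control, Dox and Tc, as log2((normalized count + 1) in library 1 over library 2). The Dox bars reach 1.58 for Gfm2, 0.95 for Mtif2 and 0.91 for Tufm, whereas all Control bars lie between -0.21 and 0.25.

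By step of translation, the elongation factors summed to 1304 to 1405 normalized counts in Control, 1230 to 1823 in Dox and 1504 to 1875 in Tc, so the Tc libraries lay above the controls. The initiation factors summed to 458 to 519 in Control, 326 to 584 in Dox and 424 to 475 in Tc. The release factors summed to 86.7 to 113 in Control, 76.5 to 91.6 in Dox and 72.3 to 75.5 in Tc, with Tc below Control. The recycling factors summed to 621 to 657 in Control, 334 to 770 in Dox and 645 to 734 in Tc. Across all factors the groups did not overlap for 1 of 10 with Dox higher than Control (16.1% of all tested genes) and 0 of 10 with Dox lower (17.1%). In Tc against Control the counts were 3 of 10 higher (Tufm, Gfm1 and Guf1, beside 15.8% of all genes) and 2 of 10 lower (Mtif3 and Mtrf1, beside 14.9%). In Dox against Tc they were 2 of 10 higher in Dox (Guf1 and Mtrf1, beside 12.2%) and 0 of 10 lower (12.4%).

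Ratios between factors that work as partners or stem from a common ancestor do not depend on library scaling, but their size depends on the gene length used, whereas differences between groups do not. Per kb of exon, Tufm over Tsfm was 4.91, 4.97 and 3.90 in Control, 6.09, 4.06 and 5.10 in Dox, and 6.85, 5.99 and 7.06 in Tc, so each Tc library was above each control. The mean log2 ratio was 0.54 higher in Tc than in Control, with p = 0.1 in a two-sided exact permutation test, the smallest that 3 against 3 libraries allow, and adjusted p = 0.3 over the 12 ratio comparisons. Gfm1 over Gfm2 was 3.78, 3.56 and 3.42 in Control, 4.02, 8.42 and 5.29 in Dox, and 4.39, 4.09 and 3.71 in Tc. It was higher in every Dox library than in any control, by 0.65 in log2 (exact permutation p = 0.1, adjusted p = 0.3), and Dox library 2 stood far above the rest. By principal transcript length, the Control ratios were 2.58, 2.61 and 2.05 for Tufm over Tsfm and 1.21, 1.14 and 1.10 for Gfm1 over Gfm2. Mtif2 over Mtif3 was also higher in each Dox library (1.80 to 2.18) than in each control (1.49 to 1.66), by 0.34 in log2 (exact permutation p = 0.1, adjusted p = 0.3). In Tc this ratio was 2.15, 1.53 and 1.92 and overlapped both other groups. Tc was above Control by 0.241 in log2 (exact permutation p = 0.3, adjusted p = 0.4), and Dox above Tc by 0.095 (exact permutation p = 0.6, adjusted p = 0.6). Mtrf1 over Mtrf1l was 1.45 to 1.99 in Control, 1.76 to 2.85 in Dox and 1.29 to 1.68 in Tc, and Dox was above Tc by 0.64 in log2 (exact permutation p = 0.1, adjusted p = 0.3).

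Over the 45 pairs of factors, the correlation of log2 levels across all 9 libraries had a median of 0.32 and ran from -0.69 to 0.86, and over the 6 libraries numbered 1 and 2 it had a median of 0.29 and ran from -0.92 to 0.94. The libraries share their groups and the wide Dox pair, so these values are a description. Among the genes whose levels followed Tufm most closely over those 6 libraries, out of 12099, were Sepsecs, which makes selenocysteine on its transfer RNA (r = 0.994), and Slc18b1, a polyamine carrier (r = 0.993), and over all 9 libraries their r was 0.885 and 0.565.

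The other genes of mitochondrial protein synthesis were read from lists. Their values without libraries 3 are given as sizes, since limma called 0 of all 12100 genes in that fit. In Dox against Control with all 9 libraries, 5% of all tested genes passed both limma thresholds and 8.41% the adjusted p alone. An unadjusted p under 0.05 in limma was passed by 29.1%, and DESeq2 called 18% at an adjusted p under 0.05. With Dox, 1 gene of these lists passed both thresholds, Gtpbp6 among the 23 genes of mitochondrial ribosome assembly and rRNA modification, a GTPase linked to ribosome splitting and assembly. Gtpbp6 had 38.1, 61.0 and 49.6 normalized counts in Control, 112, 115 and 113.5 in Dox, and 79.1, 53.1 and 72.4 in Tc. All Dox libraries were above all others, and Gtpbp6 rose by 1.20 ± 0.22 in log2 (limma, adjusted p = 0.0175), and the value without libraries 3 was 1.22 ± 0.36. The same list ran down to Mettl15, an rRNA methyltransferase, at -0.54 ± 0.23 (limma, adjusted p = 0.155), with a median of 0.21.

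Of 81 mitochondrial ribosomal proteins tested, limma called 2 higher and 0 lower with Dox at an adjusted p under 0.05 with no fold limit. Unadjusted, 11 of the 81 passed (29.1% of all genes), whereas by DESeq2 4 were higher and 1 lower. The 2 were Mrpl47 at 0.92 ± 0.21 and Mrps31 at 0.86 ± 0.19 (limma, adjusted p = 0.036 and 0.0297), with 0.99 ± 0.34 and 0.80 ± 0.29 without libraries 3. Their median was 0.08 in Dox and 0.14 in Tc against Control, and the lowest with Dox was Mrps18a at -0.69 ± 0.19 (adjusted p = 0.0591 in limma and 0.0183 in DESeq2). Among 10 activators, insertion and quality control genes, Oxa1l, which inserts new chains into the inner membrane, had 274, 189 and 298 normalized counts in Control and 467, 449.8 and 461 in Dox, a difference of 0.88 ± 0.21 in log2 (limma, adjusted p = 0.0365) and of 1.004 ± 0.31 without libraries 3, and the lowest was 2810006K23Rik at -0.73 ± 0.45.

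The 20 aminoacyl-tRNA synthetases and amidotransferase genes had 0 calls in limma at adjusted p under 0.05 (2 at an unadjusted p under 0.05, and 0 by DESeq2), a median of 0.08 with Dox, and a range from Cars2 at -0.42 to Mars2 at 0.63. Mars2, which loads methionine, was at 47.4 normalized counts in Dox library 1 and 177 in Dox library 2, against 48.7 to 61.0 in Control. The 16 tRNA processing and modification genes had 0 calls in limma with Dox (2 at an unadjusted p under 0.05, and 1 by DESeq2 at adjusted p under 0.05), from Gtpbp3 at -0.52 to Qtrt1 at 0.80. Of the start methionine genes, Mtfmt, which formylates the start methionine, was at 0.17 ± 0.23 and Metap1d, which trims it, at 0.02 ± 0.14.

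Among the 13 messengers of the mitochondrial genome, the templates these factors read, 7 were tested and 3, mt-Atp8, mt-Co2 and mt-Co3, were listed at 0 in every library. Counting kept uniquely mapped reads, and whether near-identical nuclear copies took reads from these genes was not tested. The median of these 7 was 0.92 in Dox and 0.55 in Tc. They had 0 calls in limma at adjusted p under 0.05 (6 at an unadjusted p under 0.05 with Dox). DESeq2 called 6 higher with Dox at adjusted p under 0.05, beside 1061 higher and 1111 lower of all 12100 genes. Without libraries 3 it called 3 higher, beside 43 higher and 98 lower of all genes. The values with Dox ran from mt-Nd6 at 0.24 ± 0.30 to mt-Nd2 at 1.16 ± 0.32, and for mt-Nd2 all Dox libraries (19617 to 26048 normalized counts) lay above all controls (7378 to 12323). Tc libraries 1, 2 and 3 had 19572, 21568 and 10521 normalized counts of mt-Nd2. Its Tc value was 0.71 ± 0.32, and 1.19 ± 0.40 without libraries 3. In the 27 cytosolic translation factors, 25 had a positive value with Dox, with a median of 0.22, from Eef1d at -0.14 to Abce1, which splits cytosolic ribosomes. Abce1 rose by 0.73 ± 0.15 and Eif5, an initiation factor, by 0.53 ± 0.13 (limma, adjusted p = 0.0272 and 0.039), with 0.78 ± 0.26 and 0.55 ± 0.25 without libraries 3. Over the 186 genes tested in all these lists, limma with no fold limit called 6 higher and 0 lower in Dox against Control. Of all 12100 genes it called 382 higher and 636 lower. At an unadjusted p under 0.05, 36 of the 186 passed, beside 29.1% of all genes. DESeq2 called 20 of the 186 higher and 1 lower in that comparison at an adjusted p under 0.05, beside 1061 and 1111 of all genes. In Tc against Control limma called 0 of 186 (14 at an unadjusted p under 0.05, beside 11.7% of all genes). DESeq2 called 1 higher and 1 lower there at an adjusted p under 0.05, beside 152 and 194 of all genes. In Dox against Tc limma called 0 of 186 (29 unadjusted, beside 21.7% of all genes). DESeq2 called 9 higher and 0 lower in Dox, beside 556 and 506 of all genes. The median of the cytosolic factors with Tc was 0.00.

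**Figure D5:**
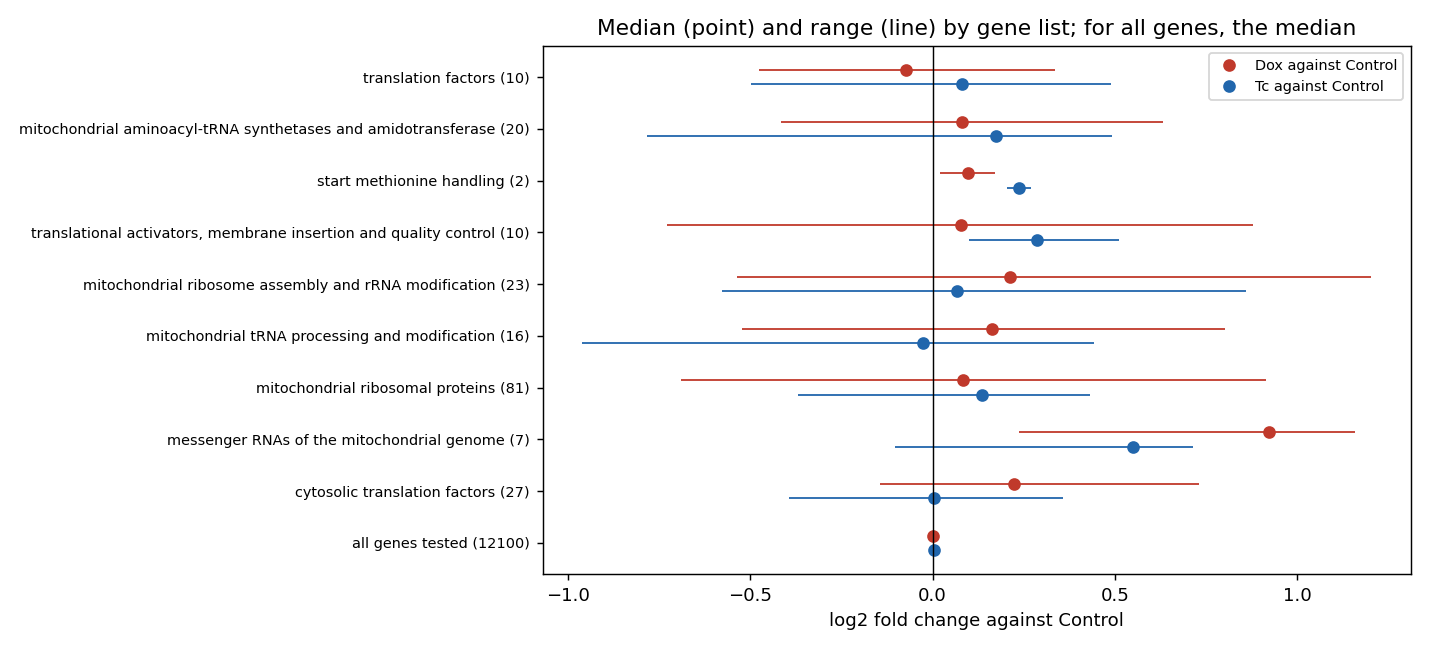
Median (points) and lowest to highest value (lines) of the log2 fold change against Control in each list, with the number of genes tested in brackets; red is Dox and blue is Tc, and for all tested genes the median alone is drawn. The translation factors run from -0.48 to 0.34 with Dox and from -0.50 to 0.49 with Tc, and the mitochondrial messengers lie farthest to the right, with a median of 0.92 with Dox.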

How the data were processed

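The submitters' processing notes and methods name cutadapt for trimming, STAR 2.7.11ac with mm10 and GENCODE vM23, HTSeq 2.0.5 for uniquely mapped reads, and DESeq2 1.42.0. The unit is a signal, since the authors deposited read counts after division by 1 size factor for each library (normalized counts). Whole reads could be rebuilt from the smallest step in each library (100% whole, tolerance 0.01). Groups came from the sample labels. log2(normalized count + 1) was tested with limma 3.58.1 (R 4.3.3, trend) in 1 model over 9 libraries, and p-values were adjusted by Benjamini-Hochberg over the 12100 genes whose mean reached 10. DESeq2 1.42.0 and edgeR 4.0.16 on these reads were alternatives, beside other pseudocounts, filters, scalings and left-out libraries. The code was tested on simulated data. Intervals are 95%, and counting errors cover sampling of reads only. Coordinates are GRCm38, and exon lengths come from GENCODE vM21.

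The 10 members and all lists were chosen with earlier results of these data known. All members are described. From each list, the genes with the largest and smallest change with Dox and every gene past both thresholds were named, and for Tufm the 3 genes with the highest r, of which 1 is not reported here, nor is 1 gene that overlaps a member. Genes past the adjusted p alone, Gtf3a and other overlapping genes and the mitochondrial genes at 0 were named after their values were seen.

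Same-numbered Dox and Tc libraries, by the numbers in the sample titles, departed alike from the mean of their own group, with r = 0.29 for number 1, 0.32 for number 2 and 0.18 for number 3, whereas r with the same-numbered Control library was -0.08 to 0.06. Since libraries 3 lie close to sums of the others, these correlations are not independent.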

Additional observations from a re-analysis of the deposited data

How the results depend on the processing

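At the fold limit of 2 and an adjusted p under 0.05, 0 factors were called under each alternative run (23 settings in all). The filter at a mean of 50 normalized counts tested 8 of the 10 factors, without Mtrf1 and Mtrf1l. The block with only Dox and Tc covered Dox against Tc alone. With no fold limit, factors were called in only 1 setting, namely Dox against Tc without Dox replicate 1, which called 2 (leaving out single libraries gave from 0 to 2). The share of all genes called in that setting is not given here. Of 664 values of single factors under the alternatives, 31 had the other sign. The median of the factors moved to 0.10 in Dox against Control and 0.11 in Dox against Tc with the same total per library. With single libraries left out it ran from -0.17 to 0.03 in Dox against Control, 0.03 to 0.13 in Tc against Control and -0.19 to 0.06 in Dox against Tc. The replicate block changed no adjusted call, though 2 factors then passed an unadjusted p under 0.05 in Dox against Tc and 2 in Tc against Control. The share of all genes that passed that limit with the block is not given here. With the block the median of the factors stayed at -0.07 in Dox against Control, 0.08 in Tc against Control and -0.07 in Dox against Tc. A replicate block with only Dox and Tc, added after the pairing was seen, also called 0 factors. With 3 libraries per group, or 2 where libraries 3 were left out, the 95% intervals reached up to 0.76 and 1.29 in log2 on either side of a value.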
